A study of Mus musculus with 6 samples.

Results

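The genes described here are 10 mouse genes of the MHC class I antigen-presentation pathway and the immunoproteasome, chosen by name: H2-K1, H2-D1, B2m, Tap1, Tap2, Tapbp, Psmb8, Psmb9, Psmb10 and Nlrc5. All 10 had an entry among the 22513 gene entries of the expression table, and all passed the filter on low values. Expression was measured by RNA sequencing of poly-A RNA from fetal thymus organ culture (FTOC) of C57BL/6 mice, either wild type (WT) or lacking Jmjd6 (Jmjd6-/-), a nuclear lysyl hydroxylase. Every culture had been kept for 4 days in 2-deoxyguanosine (2-DG), a drug that removes blood-forming cells from the lobe so that mainly stroma remains. Lobes were then left unstimulated or given RANK-ligand (RANKL) for 4 days, the cytokine that drives maturation of medullary thymic epithelial cells (mTECs). There were 6 libraries, namely 1 of unstimulated WT, 1 of unstimulated Jmjd6-/-, 2 of WT with RANKL and 2 of Jmjd6-/- with RANKL. Repeated libraries are technical duplicates by the labels and samples by the study's methods, so each p-value below measures only the spread between these libraries. The knockout is carried by every cell of the lobe, and the cultured stroma holds several cell types.

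MHC class I molecules show peptides from inside the cell to CD8+ T cells, and in the thymus they do so during positive and negative selection. The peptides are cut by the proteasome, carried into the endoplasmic reticulum by the transporter TAP, and loaded onto a class I heavy chain paired with beta-2 microglobulin. In the immunoproteasome, 3 catalytic subunits of the standard proteasome are replaced by Psmb8, Psmb9 and Psmb10. Interferons raise most of these genes, and NLRC5 acts as the class I transactivator.

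All values are FPKM, fragments scaled to transcript length and to the mapped fragments of the library, so levels can be compared between genes. The labels were checked on the targeted gene. Jmjd6 was at 26.3 FPKM in unstimulated WT and at 25.9 and 32.5 in WT with RANKL, against 1.32, 1.96 and 1.78 in the corresponding Jmjd6-/- libraries. Aire, which RANKL induces in mTECs, was at 0.142 and 0.473 FPKM in the unstimulated WT and Jmjd6-/- libraries, and lay between 67.1 and 79.7 in the 4 libraries with RANKL. The steps between low values put the libraries at roughly 15800000 to 31100000 fragments. WT RANKL replicate 2, at about 15800000, and the unstimulated Jmjd6-/- library, at about 16000000, were the shallowest. These rough estimates are too close to put the libraries in order. At that depth the smallest counts among the 10 genes were about 148 fragments for Nlrc5 and 149 for Psmb8, both in the unstimulated Jmjd6-/- library.

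Of the 10 genes, 7 lie on chromosome 17 in or near the MHC, 2 on chromosome 8 and 1 on chromosome 2 (mm10). The stretch from 34182099 to 34216321 of chromosome 17 holds Psmb9, Tap1, Psmb8 and Tap2 as neighbours. Psmb9 runs on the minus strand (34182099 to 34187330) and Tap1 on the plus strand (34187556 to 34197225), so that they start back to back. Psmb8 (34198195 to 34201454) and Tap2 (34204479 to 34216321) follow on the plus strand. Tapbp lies at 33919478 to 33929290 on the plus strand, H2-K1 at 33996012 to 34000333 on the minus strand, and H2-D1 at 35263094 to 35267497 on the plus strand of the same chromosome. Nlrc5 (94472763 to 94527272, plus strand) and Psmb10 (105935728 to 105938392, minus strand) are on chromosome 8. B2m is on the plus strand of chromosome 2. Its entry covers a wider locus, 122120108 to 122186189, that also holds Patl2 on the other strand, which was at no more than 0.058 FPKM in any library.

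Some entries share sequence with other genes. The H2-D1 entry is named for H2-D1 and H2-L together, and class I heavy-chain genes are near-identical copies of one another, so their reads could be divided among them. In the GENCODE annotation Tap1 and Psmb9 overlap by 212 bases on opposite strands, and antisense transcripts overlap Psmb8, Tap2, Tapbp and Psmb10. The library preparation as described has no step that keeps the strand, so reads from such partners cannot be told apart.

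The sequences before the start sites are shown for 4 genes that carry letters of a known interferon or NF-κB element, since these are the elements that class I promoters are known for. Windows of 300 bases, 250 before to 50 after the start site, were taken from RefSeq (GRCm38.p6) and were at hand for 8 of the 10 genes, without Tap2 and Nlrc5. Both strands were searched. Capitals mark the matches: the κB consensus and GAANNGAAA in H2-K1 and H2-D1, GAAANNGAAA and the κB consensus in B2m, and TTCNNNGAA in Psmb8. A match may be read on either strand.
H2-K1, chr17:34000417-34000470, minus strand: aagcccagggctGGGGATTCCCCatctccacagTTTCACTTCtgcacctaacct
H2-D1, chr17:35262911-35262964, plus strand: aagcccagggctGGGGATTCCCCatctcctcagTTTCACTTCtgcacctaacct
B2m, chr2:122147536-122147582, plus strand: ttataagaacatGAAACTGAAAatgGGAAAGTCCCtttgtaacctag
Psmb8, chr17:34198086-34198118, plus strand: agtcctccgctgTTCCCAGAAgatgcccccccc

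The H2-K1 and H2-D1 stretches, 54 bases each, differ at 1 position. The interferon-stimulated response element in its GAAANNGAAA form was in 1 of the 8 windows (B2m), against 3.49% of 27025 promoters of the same length. GAANNGAAA, whose spacing differs so that neither form contains the other, was in H2-K1 and H2-D1, against 7.56% of promoters. TTCNNNGAA, the palindrome of interferon-gamma activated sites, was in Psmb8 (8.47% of promoters), and the κB consensus was in H2-K1, H2-D1 and B2m (8.18%). CCAAT was in 6 of the 8 windows, against 37.9% of all promoters. The windows of Tap1 and Psmb9 share 275 bases, and their match is 1 and the same site, counted for both. These are matches of letters and no measure of binding.

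Tap1 and Psmb9 are read outward from 1 shared stretch, which is printed because Tap1 alone of the pair was called as rising with RANKL below. No test compared Tap1 with Psmb9. The stretch holds all the bases between their RefSeq start sites, 225 in number, on the strand of Tap1, with CCAAT in capitals.
Tap1 and Psmb9, chr17:34187331-34187555, plus strand: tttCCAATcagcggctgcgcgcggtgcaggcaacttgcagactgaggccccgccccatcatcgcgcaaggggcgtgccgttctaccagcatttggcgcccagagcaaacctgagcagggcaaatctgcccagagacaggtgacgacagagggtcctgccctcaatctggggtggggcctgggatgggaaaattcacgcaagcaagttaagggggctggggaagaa

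The 10 genes were expressed at very different levels. B2m was the highest and H2-K1 the next in every library, and Nlrc5 was the lowest, at 1.25 to 6.82 FPKM. H2-D1 came next after these in all but the unstimulated Jmjd6-/- library, where it and Psmb9 were at 217 and 218 FPKM. For all 10 genes the lowest of the 6 values was in the unstimulated Jmjd6-/- library, where 19.5% of the 15894 entries tested had their lowest value. For 9 of them the highest value was in WT RANKL replicate 2, where 24.5% of entries had theirs, and for Nlrc5 it was in WT RANKL replicate 1.

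**Figure D1:**
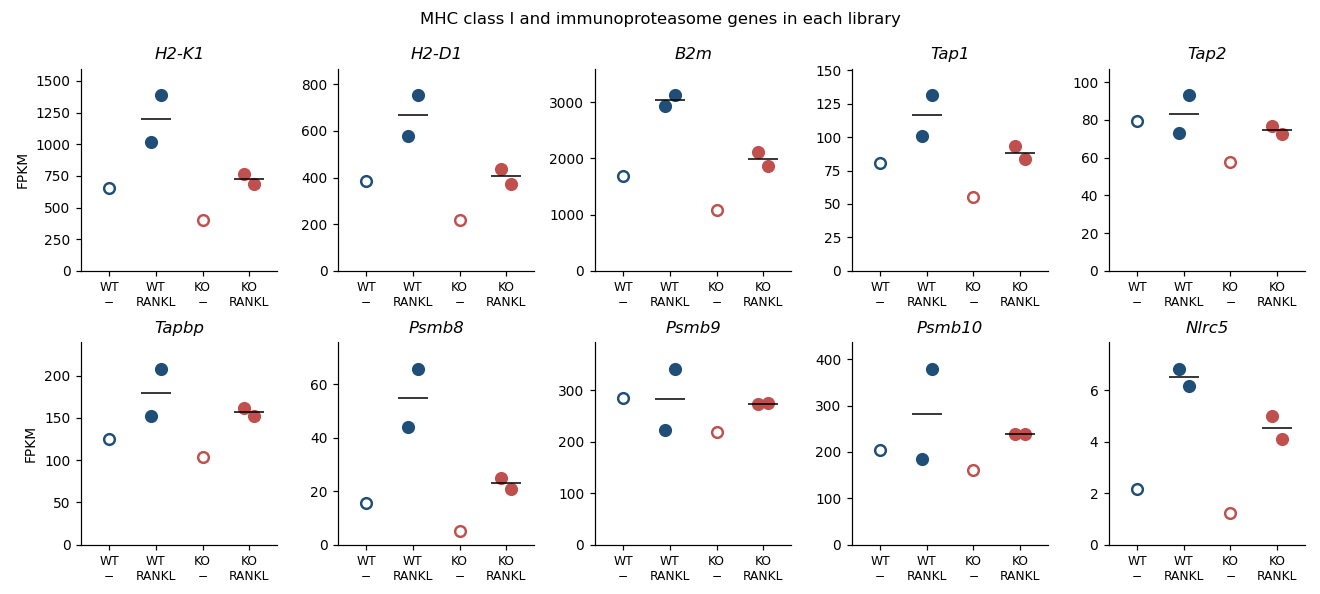
FPKM (vertical axes, each from 0) of the 10 genes in each library, with WT in blue and Jmjd6-/- (KO) in red. Open circles are the unstimulated libraries (−), filled circles the RANKL replicates, with replicate 1 on the left, and bars the mean of 2 replicates. The unstimulated Jmjd6-/- library is the lowest in every panel.

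The class I heavy chain H2-K1 was at 653 and 401 FPKM in the unstimulated WT and Jmjd6-/- libraries, 1017 and 1389 in WT with RANKL, and 763 and 686 in Jmjd6-/- with RANKL. The second classical heavy chain, H2-D1, gave 387 and 217 FPKM without RANKL in WT and Jmjd6-/-, then 579 and 754 in the WT and 437 and 372 in the Jmjd6-/- RANKL libraries. In both genes the RANKL libraries lay above the unstimulated library of their own genotype, and neither Jmjd6-/- library with RANKL reached the lower of the WT ones. B2m, the invariant light chain of every class I molecule, followed the same order, with 1689.9 and 1074 FPKM in the unstimulated WT and Jmjd6-/- libraries, 2936 and 3130.4 in WT with RANKL, and 2118 and 1861 in Jmjd6-/- with RANKL.

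Tap1, which forms the peptide transporter with Tap2, was at 80.9 FPKM without RANKL in WT and 55.0 in Jmjd6-/-, 101 and 132 in WT with RANKL, and 93.1 and 83.4 in Jmjd6-/- with RANKL. For Tap2 the corresponding values were 79.3, 57.6, 73.0 and 93.2, and 76.9 and 72.7 FPKM. The WT RANKL libraries of Tap2 thus lay on either side of the unstimulated WT library, which those of Tap1 did not. Tapbp encodes tapasin, which holds empty class I molecules at the transporter. It was at 126 FPKM without RANKL in WT and 104 in Jmjd6-/-, 152 and 208 in WT with RANKL, and 162 and 153 in Jmjd6-/- with RANKL, where the genotypes overlapped.

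The 3 immunoproteasome subunits differed widely. Psmb8 (LMP7, which replaces Psmb5) was at 15.7 FPKM without RANKL in WT and 5.30 in Jmjd6-/-, at 44.2 and 65.8 in WT with RANKL, and at 25.1 and 20.7 in Jmjd6-/- with RANKL. No other member had so wide a range, 3.61 on the log2 scale from its lowest to its highest library. Psmb9 (LMP2, which replaces Psmb6) was at 286 and 218 FPKM in the unstimulated WT and Jmjd6-/- libraries, 223 and 341 in WT with RANKL, and 273 and 275 in Jmjd6-/- with RANKL. Psmb10 (MECL-1, which replaces Psmb7) was at 205 and 161 FPKM without RANKL, 185 and 379 in WT with RANKL, and 238 in each Jmjd6-/- RANKL library. For both Psmb9 and Psmb10, WT RANKL replicate 1 fell below the unstimulated WT library and replicate 2 above it.

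Nlrc5, the transactivator, was at 2.14 FPKM without RANKL in WT and 1.25 in Jmjd6-/-, then at 6.82 and 6.16 in WT with RANKL and 4.99 and 4.10 in Jmjd6-/- with RANKL. The 4 conditions did not overlap for Nlrc5, Psmb8, H2-K1, B2m and Tap1. The unstimulated conditions were single libraries, and how many of all entries show no overlap was not counted. The lack of overlap is therefore not read as a trait of these genes.

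The response to RANKL was first estimated from all 6 libraries, with a term for genotype. Of the 10 genes 7 rose and none fell at an adjusted p under 0.05, where 10.5% of the 15894 entries rose (limma on log2(FPKM + 0.1), Benjamini-Hochberg adjustment over all entries). All 3 class I chains rose, as did Tap1, Tapbp, Psmb8 and Nlrc5, while Tap2, Psmb9 and Psmb10 did not pass. The largest differences were those of Psmb8, at 1.93 ± 0.18 (log2 ± SE, adjusted p = 0.00102), and Nlrc5, at 1.67 ± 0.15 (adjusted p = 0.000947). The class I chains rose by closely similar amounts, H2-K1 by 0.86 ± 0.14 (adjusted p = 0.0105), H2-D1 by 0.83 ± 0.14 (adjusted p = 0.00926) and B2m by 0.86 ± 0.12 (adjusted p = 0.00528). Tap1 rose by 0.59 ± 0.13 (adjusted p = 0.0248) and Tapbp by 0.55 ± 0.13 (adjusted p = 0.0382). The estimates were 0.22 ± 0.13 for Tap2, 0.14 ± 0.18 for Psmb9 and 0.47 ± 0.26 for Psmb10, with adjusted p of 0.305, 0.644 and 0.276. The median over the 10 genes was 0.71, against -0.02 over all entries tested.

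This count leaned on the unstimulated libraries, of which there was 1 per genotype. It was 2 without the unstimulated WT library, 2 without the unstimulated Jmjd6-/- library and 10 without WT RANKL replicate 1, while 3.9%, 6.26% and 13.6% of entries rose. Nlrc5 passed under all 16 alternatives tried and Psmb8 under 15 of them.

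Within each genotype the comparison was of 2 RANKL libraries with 1 unstimulated library, which was taken to vary as much as the others. In WT, Psmb8 rose by 1.77 ± 0.27 (limma, adjusted p = 0.0230) and Nlrc5 by 1.55 ± 0.23 (adjusted p = 0.0219), and the other 8 genes did not pass, against 6.05% of entries that rose. In Jmjd6-/- the same 2 genes passed, Psmb8 at 2.08 ± 0.27 (adjusted p = 0.0183) and Nlrc5 at 1.78 ± 0.23 (adjusted p = 0.0190), against 3.75% of entries. The WT mean with RANKL was 3.50 times the unstimulated value for Psmb8 and 3.03 times for Nlrc5, and the corresponding Jmjd6-/- ratios were 4.32 and 3.64. For the class I chains the ratios lay between 1.72 and 1.84 in WT and between 1.81 and 1.86 in Jmjd6-/-. Both RANKL libraries exceeded the unstimulated library of their genotype for 7 genes in WT and 10 in Jmjd6-/-, where 34.6% and 40.8% of all entries did. The counts that passed in WT became 9 without WT RANKL replicate 1 and 4 without replicate 2, while 17.1% and 11.3% of entries rose. Those in Jmjd6-/- became 10 without either of these WT libraries, since the spread then came from the Jmjd6-/- pair alone, with 8.55% and 10.3% of entries. They became 1 without either Jmjd6-/- RANKL library, with 2.1% and 2.46%.

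A difference between the genotypes in the response to RANKL was tested as an interaction. None of the 10 genes and none of the 15894 entries (0%) passed by limma, with 0 members and 664 entries at an unadjusted p under 0.05. For B2m the difference in response, Jmjd6-/- minus WT, was 0.04 on the log2 scale with a 95% interval from -0.69 to 0.77, and for Psmb8 it was 0.31 with an interval from -0.65 to 1.27.

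**Figure D2:**
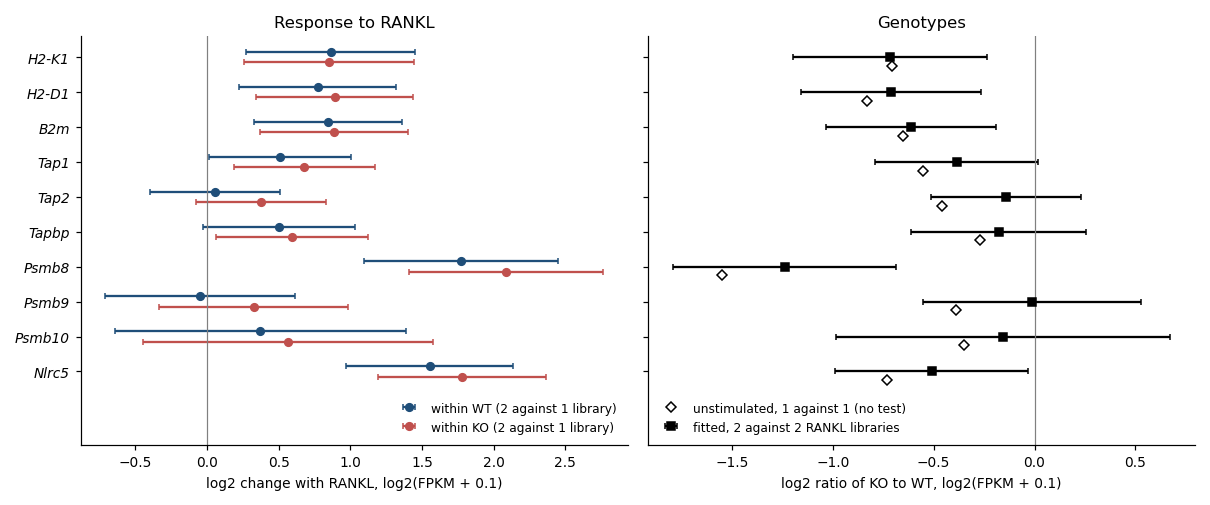
Fitted differences on the log2(FPKM + 0.1) scale (horizontal axes) with 95% confidence intervals for the 10 genes. On the left, the response to RANKL within WT (blue) and within Jmjd6-/- (KO, red); on the right, the ratio of Jmjd6-/- to WT under RANKL (squares) and between the single unstimulated libraries (open diamonds, no test). Psmb8 and Nlrc5 lie farthest to the right for RANKL, and all 10 diamonds lie left of 0.

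The genotypes were compared under RANKL, 2 libraries against 2. None of the 10 genes passed, while 1.82% of entries were lower in Jmjd6-/-. All 10 estimates were below 0, with a median of -0.45 against 0.01 over all entries. Psmb8 came nearest to the threshold, at -1.24 ± 0.22 (limma, adjusted p = 0.0594), with means of 55.0 ± 15.3 FPKM in WT and 22.9 ± 3.11 in Jmjd6-/- (SD, n = 2). H2-K1 was at -0.72 ± 0.19, H2-D1 at -0.71 ± 0.18 and B2m at -0.61 ± 0.17 (log2 ± SE), with adjusted p of 0.129, 0.111 and 0.135. Nlrc5 was at -0.51 ± 0.19 and Tap1 at -0.39 ± 0.16. Tapbp, Psmb10, Tap2 and Psmb9 lay between -0.18 and -0.01. At an unadjusted p under 0.05, without correction for the number of tests, limma gave 5 of the 10 genes, namely Psmb8, the 3 class I chains and Nlrc5, and 2987 of all entries. For 6 of the 10 genes both Jmjd6-/- values were below both WT values, as they were for 26.2% of all entries. These 6 were the 3 class I chains, Tap1, Psmb8 and Nlrc5.

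Calls between the genotypes rested on the WT RANKL libraries. Without replicate 1, 9 genes were lower in Jmjd6-/-, where 11.6% of entries were lower and 15.4% higher. Without replicate 2, Psmb8 alone of the 10 was lower, at -0.95, and Psmb9 (0.29) and Psmb10 (0.36) were higher in Jmjd6-/-, where 6.53% of entries were lower and 6.32% higher. Calls over all entries thus grew as well when either library was left out.

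Without RANKL, where each genotype had 1 library and no test was run, all 10 genes were lower in Jmjd6-/-, as were 49.1% of all entries. The ratio of Jmjd6-/- to WT was 0.338 for Psmb8, between 0.562 and 0.636 for the class I chains, 0.583 for Nlrc5, and 0.680 to 0.830 for Tap1, Tap2, Tapbp, Psmb9 and Psmb10. In a comparison of the genotypes over all 6 libraries with RANKL as a term, chosen after seeing the data, 4 genes were lower in Jmjd6-/- where 3.38% of entries were. They were Psmb8 (-1.34 ± 0.17, limma, adjusted p = 0.0112), H2-D1 (-0.75 ± 0.13, adjusted p = 0.0250), B2m (-0.63 ± 0.11, adjusted p = 0.0307) and H2-K1 (-0.71 ± 0.14, adjusted p = 0.0350). Tap1 was at -0.44 and Nlrc5 at -0.58, with adjusted p of 0.0864 and 0.0722.

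Markers of some stromal cell types differed in level between the genotypes. The summed level of 8 mesenchyme markers was 768 to 841 FPKM in the 3 WT libraries and 370 to 496 in the 3 Jmjd6-/- libraries, and that of 6 endothelial markers was 15.5 to 27.3 and 5.55 to 10.4 FPKM. Under RANKL, 2 of the 8 (Col1a2 and Col3a1) and 2 of the 6 (Pecam1 and Cdh5) were lower in Jmjd6-/- past the threshold. All were named after their values were seen, and 1.82% of all entries were lower. Markers of cortical epithelium summed to 12314 to 18878 FPKM in WT and 14930.5 to 17493 in Jmjd6-/-, and those of macrophages to 562 to 686 and 513 to 562. T-lineage markers summed to 4.64 to 8.55 FPKM over the 6 libraries with Rag2 at 0. Dendritic-cell markers, with Siglech at 0, summed to 1.62 and 2.17 FPKM in unstimulated WT and Jmjd6-/-. With RANKL they summed to 3.54 and 4.24 in WT and to 6.03 and 8.05 in Jmjd6-/-. Neutrophil markers summed to 2.94 and 9.13 FPKM without RANKL and to between 85.1 and 173 with it. The largest part came from S100a8, at 58.5 to 141 FPKM with RANKL, and S100a9, at 10.4 to 30.2. Of 6 measured ones, S100a8 and S100a9 rose with RANKL, and Csf3r (log2 difference -0.24) and Camp (1.42) did not pass. Between the genotypes under RANKL, S100a8 was at -0.92 and S100a9 at 0.77, and neither passed. Mast-cell markers summed to 4.32 to 9.62 FPKM in WT and 2.06 to 4.95 in Jmjd6-/-. Nearly all of the Jmjd6-/- sums came from Kit, at 2.03 to 4.86 FPKM there and 3.20 to 4.55 in WT. Between the genotypes under RANKL, Kit was at -0.006 and did not pass. The neutrophil markers Mpo and Ngp and the mast-cell markers Mcpt4 and Cma1 passed the filter on low values only through the WT RANKL libraries. Each averaged under 1 FPKM, and their differences are given as values without a test. In WT with RANKL they were at 1.20 and 1.40 (Mpo), 1.27 and 2.03 (Ngp), 1.90 and 0.821 (Mcpt4), and 0.870 and 0.553 FPKM (Cma1). In the unstimulated and the Jmjd6-/- libraries none of these exceeded 0.257 FPKM. Of 9 measured mTEC markers 7 rose with RANKL, where 10.5% of all entries did, and none differed between the genotypes past the threshold. Their summed level was higher in Jmjd6-/-, at 2173 to 2312 FPKM against 1411 to 1893 in WT. The largest part came from Krt5, at 1879 to 1977 in Jmjd6-/- and 1006 to 1548 in WT. In bulk RNA, fewer cells of a type and less RNA per cell cannot be told apart. The part of the cells with mesenchymal, endothelial, mTEC, neutrophil and mast-cell markers in the differences above was not tested.

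The WT RANKL replicates differed from each other more than the Jmjd6-/- ones. Over the 12587 entries that averaged 1 FPKM or more, the median absolute log2 difference was 0.28 between the WT replicates and 0.08 between the Jmjd6-/- replicates. Among the 10 genes, 9 were higher in WT replicate 2, by a median of 0.42 over all 10, while the median over all entries was -0.04. Psmb10 differed most, with 2.05 times its replicate 1 value, and B2m, at 1.07 times, and Nlrc5, at 0.903 times, the least. The difference moved with base composition. Its median ran from -0.37 in the lowest of 10 equal bins of GC content to 0.27 in the highest, and stayed between -0.01 and 0.01 in Jmjd6-/-. B2m, with 41.2% GC, lies in the lowest bin, and the other 9 genes, with 52.5 to 57.1%, lie in bins 7 to 9. Once each library had been corrected for GC content and length of the transcript, a step chosen after seeing the data, the same 7 genes rose with RANKL, against 11.8% of entries, and B2m by 0.49 in place of 0.86. Over all entries 1761 rose and 2792 fell after this correction, where 1675 rose and 654 fell without it. Psmb8 was then lower in Jmjd6-/- under RANKL, at -1.13 (limma, adjusted p = 0.0296), and the other 9 genes did not pass, while 3.91% of entries were lower.

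**Figure D3:**
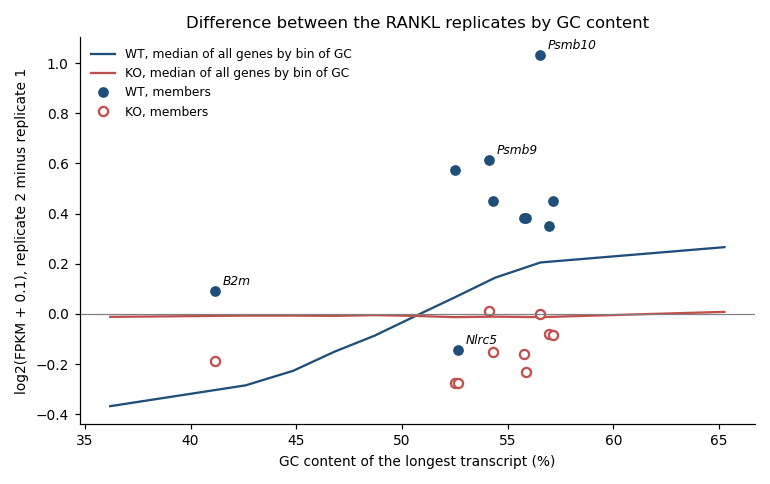
Difference between RANKL replicate 2 and replicate 1 on the log2(FPKM + 0.1) scale (vertical axis) by GC content of the longest transcript in % (horizontal axis), in WT (blue) and Jmjd6-/- (KO, red). Lines join the medians of all entries in 10 bins of GC content, and circles are the 10 genes. In WT the line rises from -0.37 to 0.27 and all of the genes but Nlrc5 lie above it, and in Jmjd6-/- the line is flat.

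The members fell into groups by the shape of their 6 values. Likeness was measured as the root mean square distance between log2(FPKM + 0.1) values centred on each gene's mean, over the 6 libraries. H2-K1 and H2-D1 were each other's nearest member at 0.049, and B2m was nearest to H2-D1 (0.108). Tap1 and Tapbp were a pair at 0.124, as were Tap2 and Psmb9 at 0.104. Tap1 and Psmb9, which start back to back on the shared stretch printed above, were thus each nearest to another gene. Psmb8 lay farthest from the mean shape of the 10, at 0.669, with Nlrc5 as its nearest member at 0.450.

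Outside the list, the 5 of 12577 entries nearest to the mean shape of the 10 genes were H2-T23 (0.0545), Vim (0.0664), H2-Q4 (0.0748), Parp10 (0.0770) and Znfx1 (0.0805). H2-T23 encodes Qa-1, a class I chain that is read by NK and T-cell receptors, and was at 145 and 88.8 FPKM in the unstimulated WT and Jmjd6-/- libraries, 223 and 275 in WT with RANKL, and 177 and 166 in Jmjd6-/- with RANKL. Vim encodes vimentin, the intermediate filament of mesenchymal cells, and ran from 63.3 FPKM in unstimulated Jmjd6-/- to 208 in WT RANKL replicate 2.

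The immunoproteasome genes were set against the subunits they replace. Psmb5, the standard chymotrypsin-like subunit, ranged from 160.1 to 243 FPKM, and neither it nor Psmb6 or Psmb7 passed in either comparison. The ratio of Psmb8 to Psmb5 was 0.0867 in unstimulated WT, 0.276 and 0.294 in WT with RANKL, 0.0276 in unstimulated Jmjd6-/-, and 0.108 and 0.0850 in Jmjd6-/- with RANKL. In this ratio the Jmjd6-/- libraries with RANKL thus lay around the level of WT without it. Psmb8 itself was higher in them, at 25.1 and 20.7 FPKM against 15.7 in unstimulated WT. Psmb5 was higher as well, at 232 and 243 against 181. Psmb9 exceeded Psmb6 in every library, by 1.89 to 2.34 times, and Psmb10 stood at 0.898 to 1.49 times Psmb7. These ratios are of transcripts per length and do not give the makeup of assembled proteasomes.

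**Figure D4:**
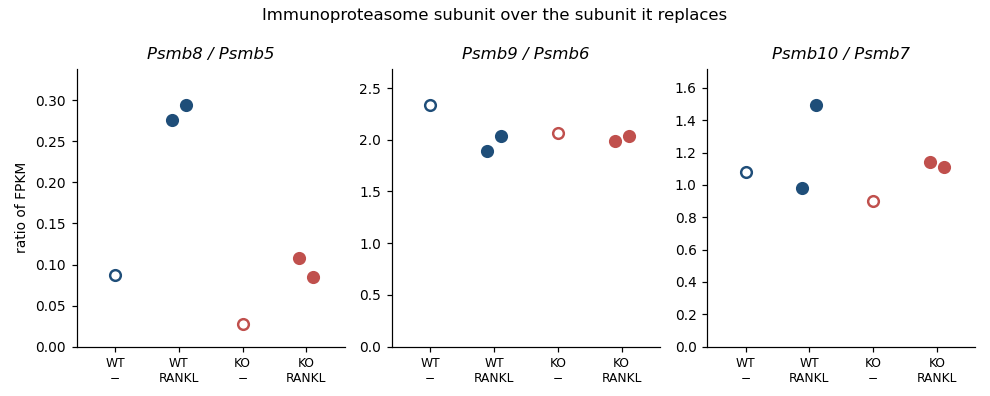
Ratio of FPKM (vertical axes, each from 0) of each immunoproteasome subunit to the standard subunit it replaces, in each library, with WT in blue, Jmjd6-/- (KO) in red, and open circles for unstimulated libraries (−). Psmb8 over Psmb5 ranges from 0.0276 to 0.294, while Psmb9 over Psmb6 stays between 1.89 and 2.34.

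Psmb11, the thymus-specific subunit of cortical epithelium, was at 439.8 and 294 FPKM in the unstimulated WT and Jmjd6-/- libraries and between 243 and 299.6 with RANKL, a log2 difference of -0.44 ± 0.15 with RANKL (limma, adjusted p = 0.0981). None of the other 11 measured subunits of the 20S core passed in either comparison. Of 9 activator and assembly genes, 2 rose with RANKL, where 10.5% of all entries did. These were Psme1 (1.01 ± 0.18, limma, adjusted p = 0.0131), a subunit of the interferon-induced PA28 cap, and Psme3 (0.30 ± 0.07, adjusted p = 0.0410). Psme1 was at 22.97 and 14.1 FPKM without RANKL in WT and Jmjd6-/-, at 43.1 and 65.3 in WT with RANKL, and at 26.5 and 23.6 in Jmjd6-/- with RANKL, with -1.08 ± 0.21 between the genotypes (adjusted p = 0.0699).

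Of 9 other genes of peptide loading and trimming, 2 rose with RANKL, where 10.5% of all entries did. They were Tapbpl (0.58 ± 0.09, limma, adjusted p = 0.00902), a tapasin relative that edits peptides, and the chaperone Calr (0.58 ± 0.09, adjusted p = 0.00819). None differed between the genotypes past the threshold.

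The non-classical and class I-like chains moved more. Of 17 measured entries 9 rose and 2 fell with RANKL, and 3 were lower in Jmjd6-/- under RANKL. Among all 15894 entries tested, 10.5% rose and 654 fell with RANKL, and 1.82% were lower in Jmjd6-/- under RANKL. H2-Q7, a chain of the Qa-2 group, was at 15.1 and 1.31 FPKM without RANKL in WT and Jmjd6-/-, at 99.99 and 127 in WT with RANKL, and at 27.8 and 19.5 in Jmjd6-/- with RANKL. It rose with RANKL by 3.47 ± 0.28 (limma, adjusted p = 0.000561) and was lower in Jmjd6-/- by a log2 difference of -2.27 ± 0.21 (adjusted p = 0.0279). H2-Q8 gave 2.64 ± 0.26 (adjusted p = 0.00123) and -1.78 ± 0.26 (adjusted p = 0.0399) in the same comparisons. The entry shared by H2-T9 and H2-T22 gave 1.02 ± 0.11 (adjusted p = 0.00177) and -1.02 ± 0.14 (adjusted p = 0.0393), and was counted as 1 entry. H2-M2 (1.54) and H2-T10 (1.11) rose with RANKL by these log2 differences. H2-Q10, also in the count of 9, was at 0.192 and 0.218 FPKM in the unstimulated WT and Jmjd6-/- libraries. With RANKL it was at 8.86 and 14.6 in WT and at 3.40 and 3.11 in Jmjd6-/-. Its unstimulated values lie near the added constant of 0.1 FPKM, so its response is given as values without a test. H2-M2, H2-T10 and H2-Q10 were not past the threshold between the genotypes. The entries that fell, named after their values were seen, were Cd1d1 (-0.85), which presents lipids, and Fcgrt (-0.58), the neonatal Fc receptor. Since the Q and T genes are close copies of one another and of the classical chains, the division of reads among them is uncertain.

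Among 16 transcription factors known to act on class I promoters, 3 rose with RANKL, where 10.5% of all entries did. None differed between the genotypes past the threshold. Stat2 rose by 1.33 ± 0.12 (limma, adjusted p = 0.000812) and belongs to interferon signalling. Relb (0.95 ± 0.17, adjusted p = 0.0130) and Nfkb2 (0.88 ± 0.10, adjusted p = 0.00211), of the alternative NF-κB pathway downstream of RANK, also rose. Irf1 was at 135 and 114 FPKM without RANKL and between 137 and 162 with it, and its estimate of 0.24 did not pass (adjusted p = 0.131). Rfx5 (0.20, adjusted p = 0.285), which binds class I and class II promoters, and Ciita (0.10, adjusted p = 0.625), the class II relative of Nlrc5, did not pass.

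Of 9 measured genes for interferons, their receptors and the receptor kinases, 2 rose with RANKL, where 10.5% of all entries did. They were Socs1 (0.95 ± 0.13, limma, adjusted p = 0.00563), the feedback inhibitor of JAK kinases, and Ifngr2 (0.41 ± 0.08, adjusted p = 0.0216). Ifnl2, named after its values were seen, was at 0.475 and 0.512 FPKM in WT with RANKL and listed at 0 in the other 4 libraries. It passed the filter on low values only through the WT RANKL libraries, so its difference between the genotypes is given as values without a test.

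Interferon-stimulated genes outside antigen presentation were counted as a list of 22, of which 21 rose with RANKL and 7 were lower in Jmjd6-/- under RANKL. The shares over all entries were 10.5% and 1.82%. The next medians are those of the 22 listed genes. Their median log2 difference was 1.53 with RANKL and -1.15 between the genotypes, against 0.71 and -0.45 for the 10 genes of antigen presentation. Cxcl9, a chemokine, is in the count of 21. It was at 0.136 and 0.0653 FPKM in the unstimulated WT and Jmjd6-/- libraries. With RANKL it was at 8.58 and 7.70 in WT and at 3.21 and 2.17 in Jmjd6-/-. Its unstimulated values lie near the filter and the added constant, both 0.1 FPKM, so its difference is given as values without a test. Among the rest of the list, Mx1 (2.65), Cxcl10 (2.57), Oas1a (2.22), Ifit3 (2.12) and Mx2 (2.08) had the largest log2 differences with RANKL. Oas1a, which senses double-stranded RNA, was also lower in Jmjd6-/- under RANKL, at -1.69 ± 0.14 (limma, adjusted p = 0.0279).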

How the data were processed

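Poly-A RNA of the 6 libraries was sequenced by the authors, mapped to mm10 with TopHat2 2.0.10, and quantified as FPKM per gene with Cufflinks 2.1.1, with correction for multi-mapped reads and a strand-specific setting. The deposited FPKM values were used as they stood. FPKM hold no counts, so depth was estimated from the steps between values below 0.15 FPKM. Groups came from titles and the stimulation field, since the treatment field gives RANKL for every sample. limma 3.58.1 in R 4.3.3 was run on log2(FPKM + 0.1) over the 15894 entries averaging 0.1 FPKM or more. The spread was fitted with a trend on the mean, and p-values were adjusted by Benjamini-Hochberg over all of them. The added 0.1 FPKM understates changes of low genes. RANKL was tested with genotype as a term, and the other comparisons in a model with 4 group means. The script was tested on simulated data. All 10 members, and up to 6 genes of each list past the threshold by size, if they averaged 1 FPKM or more, are named. Members and lists were chosen with earlier results of these data known. For 5 list genes no entry was found, and 1 list gene is not reported here.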

Additional observations from a re-analysis of the deposited data

How the results depend on the processing

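The number of the 10 genes that rose with RANKL over both genotypes (7) was 2 without the filter on low values and 1 without the genotype term, and 2 to 10 with 1 library left out. Within WT (2) it was 0 without the filter, 1 without the mean-variance trend, 4 with equal FPKM totals, and 2 to 9 with 1 library left out, when 0 to 1 fell. Within Jmjd6-/- (2) it was 0 without the filter, 1 without the trend, and 1 to 10 with 1 library left out. The number lower in Jmjd6-/- under RANKL (0) was 1 with equal totals, 1 with the GC and length trend taken out, 4 over all 6 libraries, and 0 to 9 with 1 library left out, when 0 to 2 were higher. Leaving out a RANKL library leaves its group with 1 library, which is assumed to vary like the others, with 1 residual degree of freedom in the model of 4 groups. Without the filter, 93 and 83 of all entries responded more and less to RANKL in Jmjd6-/-, and none of the 10 genes. Over all entries 1675 rose with RANKL, and 788 (3.5%) without the filter, and 5.71% rose without the genotype term. Under RANKL 290 were lower in Jmjd6-/-, 1 without the filter, 1.79% with equal totals and 1081 with the replicate block. Within WT 0.489% of entries rose without the filter, 6.13% without the trend and 5.43% with equal totals. Within Jmjd6-/- 0.0755% rose without the filter and 3.42% without the trend.

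Replicate numbers did not pair the libraries, as the replicate differences of WT and Jmjd6-/- correlated at -0.08 across 12587 genes, which are not independent. With the replicate block, 4 genes rose in WT, 5 rose in Jmjd6-/- and 3 were lower in Jmjd6-/- under RANKL. The shares over all entries were 10.3%, 6.72% and 6.8% in that order, against 6.05%, 3.75% and 1.82% without the block.

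Directions that turned were those of estimates that had not passed, and the cause was not tested. With 1 library left out, the response to RANKL ran from -0.049 to 0.33 for Psmb9 over both genotypes, and within WT from -0.12 to 0.23 for Tap2, -0.36 to 0.26 for Psmb9 and -0.15 to 0.89 for Psmb10. The difference between genotypes ran from -0.32 to 0.036 for Tap2, -0.40 to 0.048 for Tapbp, -0.32 to 0.29 for Psmb9 and -0.67 to 0.36 for Psmb10, turning without WT RANKL replicate 2. With the GC and length trend taken out, the response was -0.035 for Psmb9, and within WT -0.10 for Tap2 and -0.014 for Psmb10, and the difference between genotypes was 0.056 for Psmb9 and 0.026 for Psmb10. An added constant of 1 or 0.01, a filter at 1 FPKM and scaling by the median ratio kept every count of the 10 genes within 1.5 times its value. Over all entries, the number lower in Jmjd6-/- under RANKL was 180 with a constant of 0.01 and 172 with the filter at 1 FPKM, and the number that rose within Jmjd6-/- was 596, and 383 with a constant of 1.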
